A study of Mus musculus with 12 samples.

Results

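Dentate granule cell markers are 7 genes, Dsp, Calb1, Pdzd2, C1ql2, C1ql3, Prox1 and Tdo2, whose RNA in the hippocampus is known mainly from the granule neurons of the dentate gyrus. They were chosen with earlier results of these data known, so the shares given below describe them and are no test. The array names 17097 genes in all, and 18 of its 45037 probe sets that are not controls were annotated by gene symbol to these 7 alone. Of these 18 probe sets, 14 stood above the 30th percentile of their array on at least 3 of the 12 arrays and were tested: 3 of 3 of Dsp, 1 of 4 of Calb1, 2 of 2 of Pdzd2, 1 of 1 of C1ql2, 3 of 3 of C1ql3, 3 of 3 of Prox1 and 1 of 2 of Tdo2. The other 4 lay below the background of the array on all 12 arrays.

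Granule cells receive the cortical input to the hippocampus and pass it on through their mossy fibre axons to hilar mossy cells and CA3 pyramidal cells. Seizures drive these cells strongly, and in epileptic tissue the granule cell layer is known for sprouting, dispersion and altered peptide and calcium-binding protein content. Prox1 encodes the homeodomain factor that sets and keeps granule cell identity, Calb1 the calcium buffer calbindin, Dsp the desmosomal plakin desmoplakin, C1ql2 and C1ql3 secreted C1q-domain proteins of synapses, Tdo2 tryptophan dioxygenase, and Pdzd2 a large protein with many PDZ domains.

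RNA came from the ipsilateral hippocampus of mice in 4 groups of 3 arrays: kainic acid (KA) at 8 h, control at 8 h, KA at 14 d and control at 14 d. KA mice received 0.3 µg of KA, a glutamate receptor agonist that induces status epilepticus, into the amygdala in 0.2 µl of phosphate-buffered saline, and control mice 0.2 µl of this vehicle in the same place. Lorazepam, a benzodiazepine that curbs seizures, was given at 6 mg/kg 40 min after KA, and whether control mice had it is not given in the sources used here. Times are those of the sample titles, and the separate time entry of the 8 h samples reads 11, 12 and 13 h for KA and 8, 9 and 10 h for control. Strain, age and sex of the mice, and whether each array held 1 animal, are not given in the sources used here, so the p-values measure the spread between these samples.

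The values were the deposited log2 intensities on the Affymetrix Mouse MG-430 PM array strip, with array medians between 4.90 and 4.95 and correlations of 0.989 to 0.997 between arrays of a group. The background of an array, the mean of its nonspecific probe sets, lay between 4.10 and 4.68 on the log2 scale. Xist, the X-inactivation RNA of female cells, lay at 7.39 to 8.71 on the KA arrays at 8 h and at 4.19 to 4.67 on the other 9 arrays. The Y-linked Eif2s3y lay at 5.57 to 6.83 on the KA arrays at 8 h and at 7.46 to 8.09 on the other 9. Y-linked Kdm5d lay at 5.07 to 6.10 and at 6.43 to 6.95, and Uty overlapped (4.14 to 4.61 and 4.35 to 4.82). Sex and KA therefore cannot be told apart at 8 h, which touches every comparison with the KA samples at 8 h. Eif2s3y and Kdm5d stayed above the background of the KA arrays at 8 h, at most 4.46. Whether these arrays held RNA of both sexes was not tested. All 7 markers lie on autosomes. In whole tissue, fewer granule cells and less RNA per granule cell cannot be told apart.

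The 7 markers did not move as a block at 8 h after KA. Dsp fell 3.91-fold on a linear scale and Calb1 fell 1.35-fold, whereas Pdzd2 rose 2.02-fold, and C1ql2, C1ql3, Prox1 and Tdo2 did not pass the test. Of the 14 probe sets tested, 6 were called (limma, Benjamini-Hochberg adjusted p under 0.05), against 14.8% of all 32813 probe sets tested. Of these, 2 rose (both of Pdzd2) and 4 fell (3 of Dsp and 1 of Calb1), against 7.47% higher and 7.29% lower over all. The Dsp probe set 1427610_PM_at passed the filter on control arrays alone, so its call adds no support. Counted by gene at its leading probe set, the one with the highest mean over the 12 arrays, 1 of 7 genes rose and 2 fell, where 16.3% of 13867 named genes were called, 7.47% higher and 8.81% lower. The KA and control arrays did not overlap for 11 of the 14 probe sets, 1427610_PM_at among them, against 32.1% of all. The median log2 change of the 14 was 0.35, and that of all probe sets was -0.01. Several of the 14 read the same gene. By gene the median was 0.22, and that of the leading probe sets of all named genes was -0.02. With the replicate number as a block, 10 of the 14 were called, 6 higher and 4 lower, in a fit that called 20.6% of all probe sets. Without replicate 2 of the KA arrays at 14 d 10 were also called, in a fit that called 17.2% of all.

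At 14 d the called genes were fewer. Pdzd2 (1 of 2 probe sets) and C1ql2 were higher in KA hippocampi, and no probe set was called lower. These 2 of 14 stood against 1.68% of all probe sets called in either direction, which divide into 1.28% higher and 0.402% lower. By gene, 2 of 7 were higher and 0 lower, where 2.25% of named genes were called, 1.78% higher and 0.469% lower. KA and control arrays did not overlap for 4 of the 14, against 15.3% of all. The median log2 change of the 14 was 0.24, beside -0.02 for all probe sets. By gene it was 0.18, beside -0.01 for the leading probe sets of all named genes. The count went to 4 without replicate 2 of the KA arrays at 14 d (2.002% of all called). It went to 0 without replicate 1 of these KA arrays (0.981% of all) or replicate 2 of the controls at 14 d (0.890% of all). Without replicate 1 or 3 of the controls at either time, or replicate 2 of KA at 8 h, it was 1 (0.887% to 1.69%). The 1 call left without replicate 1 of the controls at 14 d was Dsp 1435493_PM_at, lower (adjusted p 0.0434, limma). In the other fits with 1 call it was higher. Dsp was also called lower without replicate 2 of the controls at 8 h (0.0480) or replicate 3 of KA at 14 d (0.0111).

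**Figure D1:**
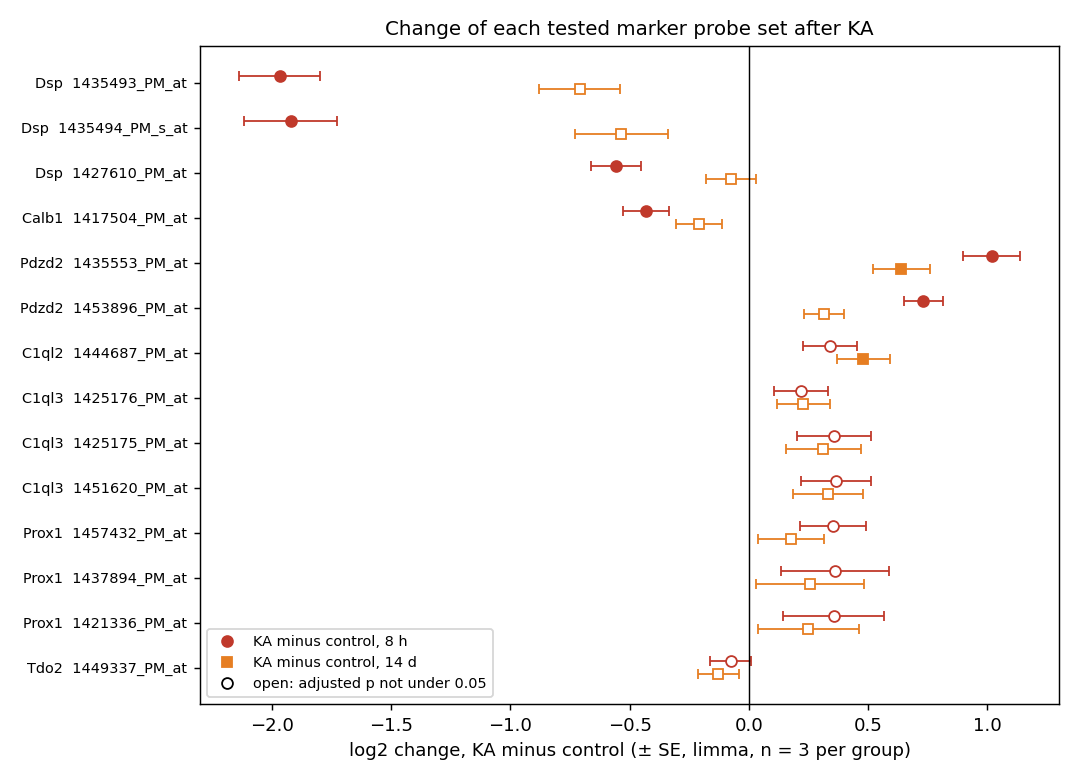
Log2 change (KA less control) of each of the 14 tested probe sets, with circles for 8 h, squares for 14 d and bars for ± SE from limma (n = 3 per group). Filled symbols passed an adjusted p of 0.05: the Dsp and Calb1 probe sets lie left of 0 and the Pdzd2 probe sets right of it at both times, but at 14 d filled symbols remain only for 1435553_PM_at of Pdzd2 and for C1ql2.

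For 3 of the genes with a call the proximal promoter was at hand and is shown, since these are the members that the array data separate into a lower one and higher ones. They run from 250 bases before to 50 after the start, from RefSeq on GRCm38.p6, which holds a promoter for 6 of the 7 genes. Dsp lies at chr13:38151044-38151343 on the plus strand, Pdzd2 at chr15:12739843-12740142 on the minus strand and C1ql2 at chr1:120340332-120340631 on the plus strand. Each is written 5′ to 3′, and capitals mark an E-box, CANNTG.
Dsp: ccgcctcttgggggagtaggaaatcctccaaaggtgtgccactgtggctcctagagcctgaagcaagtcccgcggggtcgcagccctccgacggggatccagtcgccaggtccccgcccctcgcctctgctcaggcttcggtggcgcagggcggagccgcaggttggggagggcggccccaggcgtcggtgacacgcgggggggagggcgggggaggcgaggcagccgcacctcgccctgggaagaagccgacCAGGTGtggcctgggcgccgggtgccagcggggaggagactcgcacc
Pdzd2: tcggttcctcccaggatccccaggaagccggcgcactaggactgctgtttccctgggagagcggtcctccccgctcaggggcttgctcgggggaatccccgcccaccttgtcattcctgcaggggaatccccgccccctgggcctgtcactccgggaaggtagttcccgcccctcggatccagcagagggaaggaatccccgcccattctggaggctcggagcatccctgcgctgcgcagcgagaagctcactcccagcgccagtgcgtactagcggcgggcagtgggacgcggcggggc
C1ql2: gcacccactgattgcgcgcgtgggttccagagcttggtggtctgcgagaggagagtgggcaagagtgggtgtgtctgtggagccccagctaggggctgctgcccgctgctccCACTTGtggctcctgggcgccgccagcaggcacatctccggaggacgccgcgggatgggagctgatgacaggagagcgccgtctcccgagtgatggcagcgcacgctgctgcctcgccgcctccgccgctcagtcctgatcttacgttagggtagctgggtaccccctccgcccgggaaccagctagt
A search of both strands found 1 E-box each for Dsp and C1ql2 and 0 for Pdzd2, while 72.3% of 32851 promoters of the same length hold at least 1. The AP-1 motif TGANTCA, held by 7.81% of all promoters, and the core of the cAMP-response element, TGACG, held by 20.8%, had 0 matches in the promoters of all 6 genes, so none overlapped an E-box. GC content was 73% for Dsp, 68.7% for Pdzd2 and 67.3% for C1ql2, beside a median of 52.7% over all promoters.

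Dsp (chr13:38151294-38198577, GRCm38.p6) encodes desmoplakin, which in epithelia and heart ties intermediate filaments to desmosomes. Its leading probe set 1435493_PM_at read 7.25, 7.005 and 7.18 in KA hippocampi at 8 h, against 9.30, 8.84 and 9.20 in controls at 8 h. All 3 KA arrays lay below all 3 controls, with a gap wider than the range of either group. Means were 7.15 ± 0.13 in KA and 9.11 ± 0.24 in controls (SD, n = 3 each), a log2 change of -1.97 ± 0.17 (SE), 3.91-fold lower on a linear scale, with an adjusted p of 2.03e-06 in limma. The change stayed between -2.10 and -1.48 under 25 alternatives, and each of them kept the call.

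At 14 d the same probe set read 7.47, 7.02 and 7.75 in KA hippocampi, against 7.86, 8.14 and 8.37 in controls. The groups did not overlap, but the highest KA array and the lowest control were close. The log2 change of -0.71 ± 0.17 had an adjusted p of 0.0514 in limma, just past the threshold, and it passed in 11 of 25 alternatives (adjusted p 0.000287 to 0.236 over all of them). Among these, the fit with 1 probe set per gene gave 0.0330 and the fit without replicate 3 of the KA arrays at 14 d gave 0.0111.

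The change at 14 d minus the change at 8 h was 1.26 ± 0.24 on the log2 scale for this probe set (adjusted p 0.00701, limma). Of the 14 probe sets, 2 were called in this comparison, this one and 1435494_PM_s_at of Dsp, beside 4.50% of all. Behind it, KA arrays averaged 7.41 ± 0.37 at 14 d and 7.15 ± 0.13 at 8 h, and controls averaged 8.12 ± 0.25 at 14 d and 9.11 ± 0.24 at 8 h (SD, n = 3 each). Dsp was lower in controls at 14 d than in controls at 8 h, by a log2 change of -0.99 ± 0.17 with an adjusted p of 0.00998 in limma. This control difference lost its call without replicate 1 of the controls at 8 h (adjusted p 0.0708) or at 14 d (0.0580). In order of level, controls at 8 h stood highest, then controls at 14 d, then KA at 14 d, and only the last step, from KA at 14 d to KA at 8 h, joined groups whose arrays overlapped.

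The second Dsp probe set, 1435494_PM_s_at, read 4.22, 4.12 and 4.19 in KA hippocampi at 8 h, against 6.43, 5.65 and 6.22 in controls at 8 h. Only 1 of the 3 KA arrays was above its own background, so its log2 change of -1.92 ± 0.20 (adjusted p 1.00e-05, limma) is given as at least 3.44-fold lower. Its 14 d values were 4.43, 4.21 and 4.76 in KA, against 4.63, 5.04 and 5.34 in controls. Here the groups overlapped, and the log2 change of -0.53 ± 0.20 was not called (adjusted p 0.270, limma). Only 1 of 3 KA arrays was above background at each time, so its called difference between the times (adjusted p 0.00909) has no measured size. Controls at 14 d were below controls at 8 h by a log2 change of -1.10 ± 0.20 (adjusted p 0.0132, limma). That control call was lost without replicate 1 or 3 of the controls at 8 h or replicate 1 or 2 of the controls at 14 d, with adjusted p from 0.0506 to 0.0812.

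The third Dsp probe set, 1427610_PM_at, hardly rose above background anywhere. It read 3.57, 3.56 and 3.59 in KA hippocampi at 8 h, against 4.24, 3.94 and 4.20 in controls at 8 h, where 1 array exceeded its own background. It passed the filter on only 3 arrays, all of them controls, so its call adds no support. Its log2 change of -0.56 ± 0.11 (adjusted p 0.00228, limma) supports no fold. Its 14 d values were 3.72, 3.996 and 3.82 in KA, against 3.79, 3.86 and 4.11 in controls, which overlap, and the log2 change was -0.08 ± 0.11 (adjusted p 0.869). Across the 12 arrays the leading probe set had a Pearson correlation of 0.99 with 1435494_PM_s_at and of 0.82 with 1427610_PM_at, a description over arrays that share their groups.

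**Figure D2:**
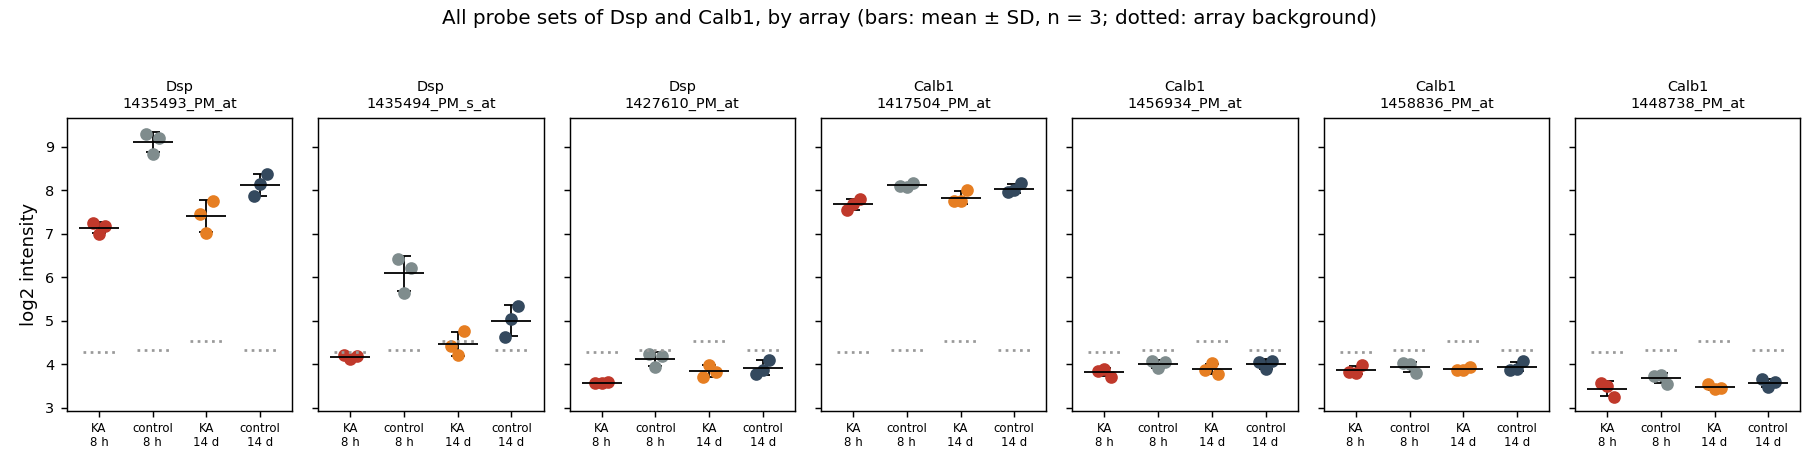
Log2 intensity of all 3 Dsp and all 4 Calb1 probe sets on each array, by group, with bars for the mean ± SD (n = 3) and dotted lines for the mean background of the group's arrays. KA arrays at 8 h lie below their controls for 1435493_PM_at and 1435494_PM_s_at of Dsp and for 1417504_PM_at of Calb1, and the other 3 Calb1 probe sets lie under the background in every group.

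Calb1 (chr4:15881264-15906709) encodes calbindin, a fast calcium buffer that fills mature granule cells and also occurs in CA1 pyramidal cells and some interneurons. Its probe set 1417504_PM_at read 7.55, 7.70 and 7.80 in KA hippocampi at 8 h, against 8.10, 8.07 and 8.17 in controls at 8 h. Every KA array lay below every control, and the controls spread by little. The log2 change was -0.43 ± 0.10, 1.35-fold lower, with an adjusted p of 0.00692 in limma, and it held its call in 25 of 25 alternatives.

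At 14 d Calb1 read 7.75, 7.75 and 8.00 in KA hippocampi, against 7.96, 8.00 and 8.17 in controls. The highest KA array reached into the control range. The log2 change of -0.21 ± 0.10 was not called (adjusted p 0.435, limma), nor did the changes at the 2 times differ by a tested amount (difference 0.22 ± 0.14, adjusted p 0.485). Controls at 14 d and at 8 h overlapped, with a log2 difference of -0.07 ± 0.10 (adjusted p 0.835). In order of level, controls at 8 h, controls at 14 d, KA at 14 d and KA at 8 h followed each other, and each neighbouring pair overlapped.

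The other 3 Calb1 probe sets, 1456934_PM_at, 1458836_PM_at and 1448738_PM_at, had group means between 3.45 and 4.02, below the background on all 12 arrays, and they did not pass the filter. The call for Calb1 thus rests on 1 probe set. The third array was the highest of its group in all 4 groups for Calb1 and for the leading probe set of C1ql3, and the third arrays deviated together over all probe sets, with correlations of 0.41 to 0.54 between groups.

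Pdzd2 (chr15:12359711-12739968) moved the other way. Probe set 1435553_PM_at read 8.64, 8.86 and 9.03 in KA hippocampi at 8 h, against 7.91, 7.80 and 7.77 in controls at 8 h. The lowest KA array was well above the highest control, and the log2 change of 1.02 ± 0.12 was 2.02-fold (adjusted p 4.36e-05, limma). At 14 d it read 8.01, 7.54 and 7.98 in KA, against 7.17, 7.19 and 7.26 in controls. Again the groups were apart, with a log2 change of 0.64 ± 0.12, 1.56-fold (adjusted p 0.0118, limma). This call was lost without replicate 1 of the KA arrays at 14 d (adjusted p 0.0788) and without replicate 1 (0.0540) or replicate 2 (0.0610) of the controls at 14 d.

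The second probe set, 1453896_PM_at, read 5.90, 6.02 and 6.07 in KA hippocampi at 8 h, against 5.30, 5.19 and 5.30 in controls at 8 h, a log2 change of 0.73 ± 0.08, 1.66-fold (adjusted p 2.54e-05, limma). After 14 d it read 5.41, 5.33 and 5.52 in KA, against 5.03, 5.12 and 5.16 in controls. The arrays of the 2 groups were separate at both times, yet the log2 change of 0.32 ± 0.08 at 14 d was not called (adjusted p 0.0772, limma). The change at 14 d minus that at 8 h was -0.38 ± 0.17 (adjusted p 0.289) for the leading probe set and -0.42 ± 0.12 (adjusted p 0.0588) for the second. The second was called with the replicate block (0.0267), with array weights (0.00448) and without replicate 3 of the KA arrays at 14 d (0.0329). Over 12 arrays both probe sets had a Pearson correlation of 0.97.

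Controls also differed between the times at the leading probe set of Pdzd2, as they did for Dsp. At the second, 1453896_PM_at, controls did not overlap, but the log2 difference of -0.16 ± 0.08 was not called (adjusted p 0.426, limma). The leading probe set was lower in controls at 14 d than in controls at 8 h by a log2 change of -0.62 ± 0.12 (adjusted p 0.0196, limma), a call lost without replicate 1 or 2 of the controls at 8 h or any 1 control at 14 d (adjusted p 0.0606 to 0.117). In all, 3 of the 14 probe sets were lower in controls at 14 d and 0 were higher, against 1.36% of all probe sets called in either direction and 0.585% called lower. The control groups did not overlap for 7 of the 14, against 23.7% of all. In order of level, KA at 8 h stood highest and apart, KA at 14 d and controls at 8 h overlapped, and controls at 14 d stood lowest and apart. The mean of KA at 14 d, 7.84 ± 0.26, was thus close to that of controls at 8 h, 7.83 ± 0.07 (SD, n = 3 each).

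**Figure D3:**
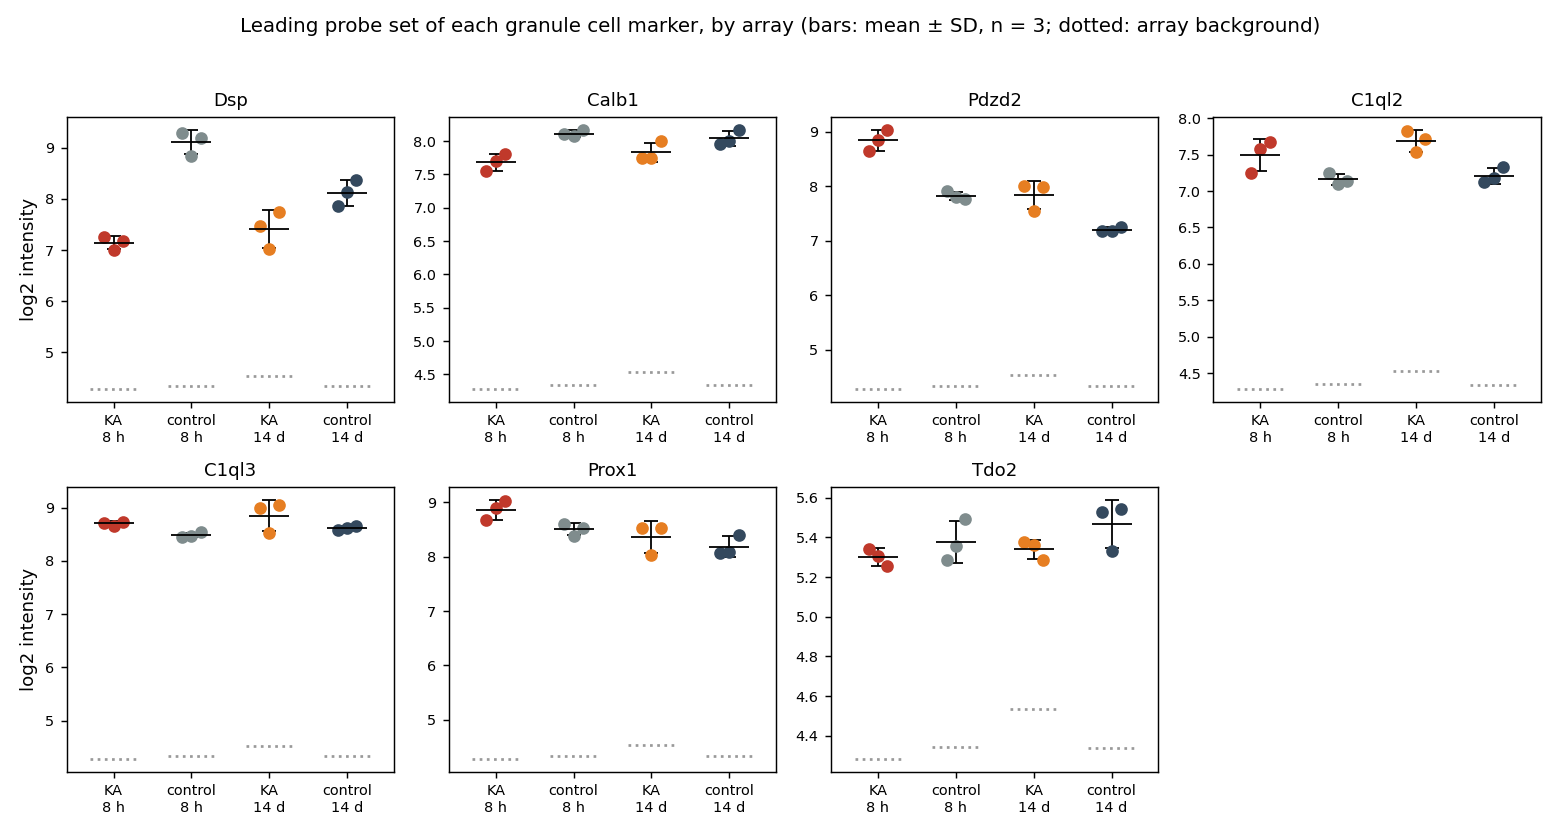
Log2 intensity of the leading probe set of each of the 7 markers on each array, by group, with bars for the mean ± SD (n = 3) and dotted lines for the mean background of the group's arrays. Dsp is lower and Pdzd2 higher in KA than in controls of the same time without overlap, C1ql2, C1ql3 and Prox1 differ by less, and Tdo2 overlaps at both times (each panel has its own scale).

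C1ql2 (chr1:120340582-120343174) and C1ql3 (chr2:13001887-13010864) encode secreted C1q-like proteins, which in mice are released at mossy fibre synapses and bind kainate receptor subunits, neurexins and the adhesion receptor Adgrb3. C1ql2 read 7.25, 7.58 and 7.67 in KA hippocampi at 8 h, against 7.25, 7.10 and 7.14 in controls at 8 h. The lowest KA array equalled the highest control to 2 decimals. The log2 change of 0.34 ± 0.11 was not called (adjusted p 0.0556, limma), but it was in 8 of 25 alternatives, among them the replicate block (0.0316) and the fit without replicate 1 of KA at 8 h (0.0124).

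At 14 d C1ql2 read 7.82, 7.53 and 7.72 in KA hippocampi, against 7.12, 7.18 and 7.33 in controls. The groups were apart, and the log2 change of 0.48 ± 0.11, 1.39-fold, was called narrowly (adjusted p 0.0428, limma). Leaving out any 1 of 9 arrays ended the call, with adjusted p from 0.0544 to 0.196: all but replicates 1 and 3 of KA at 8 h and replicate 2 of KA at 14 d. Its changes at the 2 times did not differ by a tested amount (0.14 ± 0.16, adjusted p 0.771).

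The leading C1ql3 probe set, 1425176_PM_at, read 8.72, 8.66 and 8.73 in KA hippocampi at 8 h, against 8.45, 8.47 and 8.54 in controls at 8 h. These groups were apart, with a log2 change of 0.22 ± 0.11 that was not called (adjusted p 0.243, limma) except with cyclic loess (0.0446) and without replicate 2 of KA at 14 d (0.0466). At 14 d the probe set read 8.99, 8.52 and 9.05 in KA, against 8.59, 8.62 and 8.66 in controls, with replicate 2 of KA below all controls (log2 change 0.23 ± 0.11, adjusted p 0.479). Without that array the log2 change was 0.40 and called (adjusted p 0.0145), as it was with array weights (0.000633), and without replicate 3 of KA it was 0.13 (adjusted p 0.605). Probe set 1425175_PM_at read 8.17, 8.27 and 8.51 in KA hippocampi at 8 h, against 7.88, 7.92 and 8.07 in controls at 8 h. Probe set 1451620_PM_at read 6.76, 6.75 and 6.83 in KA, against 6.45, 6.38 and 6.41 in controls at 8 h, so in both cases all KA arrays were above all controls. The pair showed log2 changes of 0.36 ± 0.16 and 0.36 ± 0.15 at 8 h, which were not called (adjusted p 0.153 and 0.118, limma), but each was called in 5 of 23 alternatives, among them the replicate block (0.0220 and 0.0487). At 14 d their log2 changes were 0.31 ± 0.16 and 0.33 ± 0.15, with overlap (adjusted p 0.485 and 0.406). Without replicate 2 of KA at 14 d these became 0.48 (adjusted p 0.160) and 0.54 (called, 0.0174), and without replicate 3 of KA 0.09 and 0.13 (adjusted p 0.744 and 0.609). A further probe set is annotated to both C1ql3 and Pter and was left out.

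Prox1 (chr1:190118035-190170827) read 8.67, 8.89 and 9.03 at its leading probe set, 1457432_PM_at, in KA hippocampi at 8 h, against 8.60, 8.39 and 8.53 in controls at 8 h. The groups were narrowly apart, and the log2 change of 0.35 ± 0.14 was not called (adjusted p 0.106, limma), but it was in 5 of 25 alternatives, among them the replicate block (0.0332) and the fit without replicate 2 of KA at 14 d (0.0394). Its 14 d readings were 8.52, 8.03 and 8.53 in KA, against 8.07, 8.09 and 8.40 in controls, with replicate 2 of KA lowest of all 6 (log2 change 0.18 ± 0.14, adjusted p 0.724). The fainter probe set 1437894_PM_at read 5.96, 6.06 and 6.73 in KA hippocampi at 8 h, against 6.04, 5.76 and 5.87 in controls at 8 h. The other, 1421336_PM_at, read 5.61, 5.70 and 6.43 in KA, against 5.60, 5.44 and 5.63 in controls at 8 h. In each, replicate 3 of KA stood far above the rest and the lowest KA array lay within the controls. These 2 probe sets showed log2 changes of 0.36 ± 0.23 and 0.36 ± 0.21 at 8 h and of 0.26 ± 0.23 and 0.25 ± 0.21 at 14 d, with overlap at both times and adjusted p from 0.320 to 0.768. Without replicate 3 of KA at 8 h the 8 h values were 0.12 and 0.098 (adjusted p 0.799 and 0.811). At 14 d leaving out 1 array moved the 3 Prox1 changes between 0.021 and 0.48, with no call. Controls at 14 d read 4.98, 5.20 and 5.74 at 1437894_PM_at, below all 3 controls at 8 h, a log2 change of -0.58 ± 0.23 that was not called (adjusted p 0.252, limma). No probe set of this identity factor was called lower in KA hippocampi at either time.

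Tdo2 (chr3:81958412-81975728) encodes an enzyme that opens the tryptophan breakdown pathway. Probe set 1449337_PM_at read 5.34, 5.31 and 5.25 in KA hippocampi at 8 h, against 5.28, 5.36 and 5.49 in controls at 8 h. At 14 d it read 5.37, 5.36 and 5.28 in KA, against 5.53, 5.33 and 5.55 in controls. The groups overlapped at both times, with log2 changes of -0.08 ± 0.09 at 8 h (adjusted p 0.655) and -0.13 ± 0.09 at 14 d (adjusted p 0.652, limma). Leaving out 1 array gave values from -0.12 to -0.018 at 8 h, and -0.20 at 14 d without replicate 2 of the controls. The other probe set, 1419093_PM_at, lay below background on all arrays, with group means of 3.62 to 3.90.

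In a longer list of granule cell markers genes also lay on both sides of 0. Of 12 genes tested of 16, 2 rose and 1 fell at 8 h, where 16.3% of all named genes were called, with a median log2 change of -0.01 beside -0.02 for the leading probe sets of all named genes. Stxbp6, a SNARE-binding protein, fell to 6.04 ± 0.19 in KA, against 6.92 ± 0.03 in controls (SD, n = 3 each), a log2 change of -0.88 ± 0.12 (adjusted p 0.000186, limma). Npnt, the matrix protein nephronectin, rose to 8.17 ± 0.24, against 7.09 ± 0.16 in controls, a log2 change of 1.08 ± 0.24 (adjusted p 0.00704). The transcription factor Glis3, near background in controls, rose by a log2 change of 0.42 ± 0.12 (adjusted p 0.0272), a call lost without replicate 1 or 3 of the KA arrays at 8 h or replicate 1 or 2 of their controls (0.0606 to 0.122). Plk5 had a log2 change of -0.25 (adjusted p 0.161). At 14 d 0 of the 12 were called, with a median of -0.02.

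Immature granule cell and progenitor markers had 1 of 8 tested genes higher and 1 lower at 8 h, where 7.47% of named genes were called higher and 8.81% lower. Sox11, a transcription factor of newborn neurons, rose to 8.44 ± 0.04 in KA, against 7.21 ± 0.05 in controls (SD, n = 3 each), a log2 change of 1.23 ± 0.11 (adjusted p 2.66e-06, limma). Hopx, which marks quiescent progenitors and also astrocytes, fell by 0.38 on the log2 scale (adjusted p 0.0125), a call lost without replicate 1 of KA or replicate 3 of controls at 8 h (0.0581 and 0.0548). At 14 d 0 of 8 were called, where 2.25% of named genes were. Mossy cell markers had 0 of 4 called at either time.

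Markers of the other hippocampal neurons gave the surroundings of these values. Their counts stand beside 16.3% of named genes called at 8 h (7.47% higher, 8.81% lower). At 14 d the share was 2.25% (1.78% higher, 0.469% lower). Of 6 CA1 pyramidal cell markers 0 were called at 8 h and 1 at 14 d, when Fibcd1 fell to 7.54 ± 0.16 in KA, against 8.50 ± 0.06 in controls, a log2 change of -0.96 ± 0.12 (adjusted p 0.000257, limma), with a list median of -0.34. Of 6 CA3 markers 2 rose at 8 h, the adhesion protein gene Nectin3 (log2 change 0.74 ± 0.15, adjusted p 0.00421) and the tetraspanin gene Tspan18 (0.42, adjusted p 0.0440), and 0 were called at 14 d. The Tspan18 call was lost in 11 of 25 alternatives, among them leaving out any 1 control at 8 h or replicate 1 or 3 of KA at 8 h (0.0558 to 0.177). Of 12 interneuron markers 2 rose and 3 fell at 8 h and 1 rose and 1 fell at 14 d. Sst rose by a log2 change of 0.72 at 8 h (adjusted p 0.000209, limma) and stood at 0.05 at 14 d (adjusted p 0.923). The peptide gene Npy, also in the list of activity-induced genes below, rose by log2 changes of 1.10 at 8 h and 1.33 at 14 d (adjusted p 0.00290 and 0.00345). Pvalb, the calcium buffer parvalbumin, fell by 0.55 and 0.71 (adjusted p 0.00465 and 0.00346). Erbb4 had log2 changes of -0.52 at 8 h (adjusted p 0.00385) and -0.38 at 14 d (0.111). Its 8 h call was lost without the third arrays (0.0529).

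**Figure D4:**
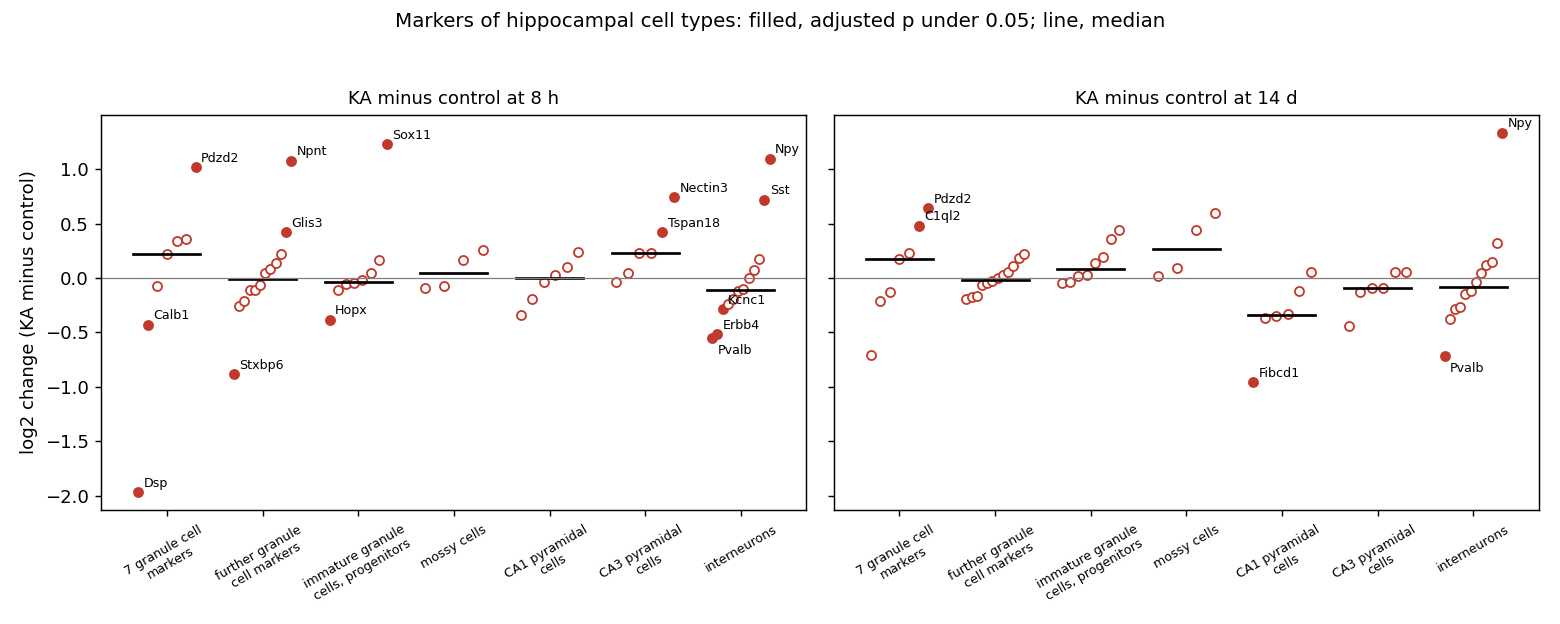
Log2 change after KA (8 h left, 14 d right) of the leading probe set of each tested gene in 7 lists of hippocampal cell markers, with filled circles for an adjusted p under 0.05 and lines for list medians. Dsp, at -1.97, lies lowest of all genes drawn at 8 h, while Fibcd1 of the CA1 list lies lowest at 14 d.

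Tissue carried over at dissection was followed with 3 further lists, against 16.3% of named genes called at 8 h and 2.25% at 14 d. The mean level of 8 choroid plexus markers ranged over arrays from 5.32 to 7.12 in KA at 8 h and from 6.48 to 6.81 in controls at 8 h, and 0 of 8 were called at either time. The widest was Ttr, the choroid plexus transthyretin gene, at 9.57 to 12.18 in KA and 11.87 to 12.15 in controls at 8 h. Of 6 meningeal and fibroblast markers 1 rose at 8 h and 2 at 14 d, with list medians of -0.05 and 0.01. Ogn (log2 changes of -0.20 and -0.22) and Igf2 (-0.36 and -0.48) lay below 0 at both times and were not called. The collagen gene Col3a1 rose by log2 changes of 0.44 and 1.32 (adjusted p 0.0206 and 1.14e-05, limma). The call at 8 h was lost without replicate 1 or 3 of KA or replicate 1 or 2 of controls at 8 h (0.0681 to 0.102). The other call at 14 d, the collagen gene Col1a1 (log2 change 0.69, adjusted p 0.0372), was lost in 13 of 25 alternatives, among them leaving out any 1 control at either time, replicate 1 of KA at 8 h or replicate 1 or 2 of KA at 14 d (0.0523 to 0.184). Of 8 thalamus markers 1 rose and 1 fell at 8 h and 0 were called at 14 d. The one that rose, Rgs16 (log2 change 0.46, adjusted p 0.00245, limma), kept its call in 25 of 25 alternatives. The call of the one that fell, Ntng1 (log2 change -0.39, adjusted p 0.0263), was lost without replicate 1 or 3 of KA or replicate 2 or 3 of controls at 8 h (0.0532 to 0.134). The part of such tissue in the marker results was not tested.

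Partners of the marker proteins were counted against the same 16.3% of named genes called at 8 h. Of 9 desmosome genes tested of 14, 1 was called at 8 h: Pkp2, a plakophilin that binds desmoplakin, fell to 5.17 ± 0.12 in KA, against 5.95 ± 0.15 in controls (SD, n = 3 each), a log2 change of -0.79 ± 0.18 (adjusted p 0.00740, limma). The median of the list was 0.01, and at 14 d 0 of 9 were called. Among 8 tested relatives and receptors of the C1q-like proteins, 2 receptor genes fell at 8 h and none rose. The kainate receptor subunit gene Grik2 fell to 6.13 ± 0.08, against 6.70 ± 0.03 in controls, by a log2 change of -0.57 ± 0.08 (adjusted p 0.000193), and Adgrb3 fell to 5.37 ± 0.24, against 6.27 ± 0.26, by -0.90 ± 0.16 (adjusted p 0.00157). At 14 d 0 of 8 were called, and C1ql1 had a log2 change of 0.31 (adjusted p 0.253).

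Beside Calb1, 2 of 16 tested calcium buffer and sensor genes rose and 3 fell at 8 h, with a median log2 change of -0.11. Over all named genes 7.47% were called higher and 8.81% lower at 8 h. Ncald, the sensor neurocalcin delta, fell to 9.17 ± 0.13 in KA, against 9.72 ± 0.05 in controls (adjusted p 0.00187, limma), and Hpcal1 fell by 0.40 on the log2 scale (adjusted p 0.00551), whereas Ncs1 rose by 0.39 (adjusted p 0.00965). Hpcal1 lost its call without the third arrays (0.0534) and Ncs1 with the mean of all its probe sets (0.119). At 14 d 2 rose and 1, Pvalb, fell, against 1.78% of named genes called higher and 0.469% lower. Of 7 tested tryptophan and kynurenine pathway genes, the pathway of Tdo2, only Ddc, an amino acid decarboxylase, rose at 8 h (log2 change 0.43, adjusted p 0.00767), and 0 were called at 14 d. Averaging the probe sets of Ddc (0.0746) or leaving out the third arrays (0.0560) ended its call.

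Genes that neuronal activity induces are given for scale only, since this list was chosen with earlier results of these data known. All 16 rose at 8 h, beside 7.47% of named genes called higher, with a median log2 change of 2.40. At 14 d 6 rose, beside 1.78% of named genes, with a median of 0.56. Inhba, an activin subunit gene, read 9.41 ± 0.12 in KA, against 4.52 ± 0.04 in controls, at 8 h (SD, n = 3 each), a log2 change of 4.89 ± 0.25 (adjusted p 1.36e-08, limma). At 14 d it read 6.25 ± 0.78 in KA, against 4.82 ± 0.13 in controls (log2 change 1.43 ± 0.25, adjusted p 0.00665), a call lost when only the 2 groups were fitted (0.0629) and when all its probe sets were averaged (log2 change 0.46, adjusted p 0.0975). Pcsk1, a prohormone convertase gene, rose by 2.18 ± 0.10 at 8 h (adjusted p 4.28e-09) and had a log2 change of -0.03 at 14 d (adjusted p 0.954).

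Likeness of pattern was measured as the Pearson correlation over the 12 arrays among the leading probe sets of 13860 named genes that passed the filter and are not markers. It describes arrays that share 4 groups and carries no test. The genes most like Dsp were Extl2, B3galt5, Tnik, Foxk1 and Tprgl, with correlations of 0.95 to 0.97. Those most like Calb1 were Pdcd4, Map3k4, Lmo3, Elmod1 and 2610002M06Rik, each at 0.97. Those most like Prox1 were Ypel5, Lsm12, Coro1c, Nefl and Dip2b, with correlations of 0.95 to 0.96.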

How the data were processed

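Hippocampal RNA was measured on 12 arrays, 3 in each of 4 groups set by the sample titles. The labels' protocols give 5 ng of RNA as input, 22 amplification cycles and 8 µg of cDNA for labelling. The deposited values are log2 intensities, 1 per probe set, and RMA and affy are named in the submitters' processing notes. Their order and versions are not given in the sources used here. Gene names came from the platform annotation: 28898 probe sets had 1 symbol, 551 had several and 15588 were unnamed. Coordinates and promoters came from RefSeq (GRCm38.p6), and none for Calb1's promoter.

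The 104 array controls were left out, and a probe set was tested where it exceeded the 30th percentile of its array on at least 3 arrays (32813 in all). All 12 arrays were fitted with limma 3.58.1 in R 4.3.3 (lmFit, eBayes, 8 residual degrees of freedom), with Benjamini-Hochberg adjustment over all probe sets tested and a threshold of 0.05. KA was set against control within each time, the 14 d change against the 8 h change, and 14 d controls against 8 h controls (4 comparisons, which share groups). Background was the mean of the nonspecific probe sets with 18 to 25 GC bases, and folds became lower bounds ("at least") if any array of the lower group did not exceed it. The fit was tested on simulated data with noise independent between arrays. Of changes of 0.5 on the log2 scale it recovered 50.7% at 8 h and 47.8% at 14 d, with 5.23% and 5.20% of all calls false. For the difference between the times it recovered 19.4%, with 9.09% of calls false. A change of this size or smaller that was not called is thus not shown to be absent. The number of arrays limits the precision.

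Same-numbered arrays deviated together at 8 h, with correlations of 0.157, 0.145 and 0.416, each over 0.1. The main fit used group means only and did not pair the arrays. Fits with the replicate number as a block were an alternative, and their values stand beside the 8 h results whose call they change. At 14 d the correlations were 0.170, 0.0594 and 0.487. No 2 arrays held identical values.

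The 7 genes and all lists were chosen with earlier results of these data known. Every probe set of the 7 genes was reported, up to 4 genes per list were named by lowest adjusted p in either KA comparison, and 5 genes by likeness to Dsp, Calb1 and Prox1. Alternatives covered the filter, scaling, probe set choice, samples in the fit, the replicate block, array weights, the threshold and leaving out arrays. Listed genes without a probe set named here were not analysed here.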

Additional observations from a re-analysis of the deposited data

Results flagged for a closer look

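The change in Dsp after KA differed between the times by a test of the difference itself. For probe set 1435493_PM_at the change at 14 d minus the change at 8 h was 1.26 ± 0.24 on the log2 scale (adjusted p 0.00701, limma), and for 1435494_PM_s_at the fitted value was 1.39 ± 0.28 (adjusted p 0.00909). Of the KA arrays only 1 of 3 was above background at each time for 1435494_PM_s_at, so its value is no measured size and adds no support. At 8 h, 3 of 3 KA arrays lay below all 3 controls for both probe sets, while at 14 d the first was apart and the second overlapped. The control level itself differed between the times, by log2 values of -0.99 and -1.10 for these probe sets (controls at 14 d minus controls at 8 h).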

How the results depend on the processing

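At 8 h the 6 calls among the marker probe sets were kept in direction and side of the threshold under every alternative that gave them a value, and the count moved to 10 with cyclic loess, with the replicate block, with array weights and without replicate 2 of the KA arrays at 14 d (6 to 10 over the fits that left out 1 array). These 4 fits called 16.2%, 20.6%, 20.6% and 17.2% of all probe sets, beside 14.8%. By gene it was 3, and became 6 with cyclic loess, 5 with the replicate block and 5 with array weights (3 to 6 leaving out 1 array). At 14 d the count of 2 became 1 without the filter, with median centring and with only the 2 groups compared, 4 with the replicate block (3.19% of all probe sets called), 10 with array weights and 0 at an adjusted p under 0.01 (0 to 4 leaving out 1 array). By gene the 2 became 1 without the filter, with median centring and with only the 2 groups, 6 with array weights and 0 at the stricter threshold (0 to 3 leaving out 1 array). The array weights gave replicate 1 of the KA arrays at 14 d a weight of 11.5, and the calls over all probe sets at 14 d went to 7311 from this fit, beside 551. The difference between the times had 2 calls and 1 without x_at and s_at probe sets, which removes 1435494_PM_s_at. The control comparison had 3 calls and 1 at the stricter threshold (0 to 3 leaving out 1 array), and by gene 2, with 1 when all probe sets of a gene were averaged and 1 at the stricter threshold (0 to 2 leaving out 1 array).

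With the replicate block, Dsp at 14 d was called (adjusted p 0.00489), as were the second Pdzd2 probe set at 14 d (0.0336) and Prox1 1437894_PM_at in the control comparison (0.0418). The numbers are not shown to pair the samples at either time: 4 of 6 arrays correlated best with their own number at 14 d and 3 of 6 at 8 h. Small changes that turned sign were Tdo2 at 8 h (0.0054 without the third array of each group), Dsp 1427610_PM_at at 14 d (0.033 without the third arrays, 0.019 without replicate 3 of the controls at 14 d, and -0.15 to 0.019 leaving out 1 array) and Prox1 1421336_PM_at between controls (-0.19 to 0.018 leaving out 1 array); none of them was called. The causes were not tested. Signal near background limits 1427610_PM_at and the 4 probe sets left untested.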
